A study of Homo sapiens with 4 samples.

Results

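The genes described here were 10 regulators of the G1 phase of the cell cycle and of its brakes: the D-type cyclins CCND1, CCND2 and CCND3, the cyclin-dependent kinases CDK2, CDK4 and CDK6, the inhibitor CDKN1A, the retinoblastoma gene RB1, the transcription factor E2F1 and the p53 antagonist MDM2. They were chosen by name. H3K27ac HiChIP, which enriches proximity-ligated DNA for contacts at chromatin carrying the acetylation mark of active promoters and enhancers, was applied to M14 cells, an established human melanoma line. All cells carried a doxycycline-inducible shRNA against STAG2, a subunit of the cohesin ring that holds DNA loops. WT cells grew without doxycycline and STAG2-KD cells with it for 5 days, and puromycin was in the medium of both groups. No doxycycline-treated cells with another shRNA were analysed here, so the drug and the knockdown cannot be told apart. The 4 labelled samples were 2 per group, but 1 loop list per group was analysed, so no difference between the lists has a replicate check and no p-value is given.

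There were 27289 loops in the WT list and 25621 loops in that of STAG2-KD cells. A loop joined 2 anchors, each 5 kb wide, over 20 to 1990 kb between anchor midpoints. With positions alone in the lists, the number of reads behind a loop is unknown, and a loop missing from a list may lie just short of the limit of the loop caller. The knockdown could not be checked in the lists, which held 0 loops on chromosomes X and Y, and STAG2 is X-linked. Of 9 melanocyte lineage markers, 8 had a loop at a transcript start in either list, and TYR, which encodes tyrosinase, had 0. Their loops summed to 34 in WT and 25 in STAG2-KD. Of the 8, 5 had fewer in STAG2-KD, 2 more and 1 as many. Over all autosomal protein-coding genes with a loop, 43.4% had fewer and 34.4% more. MITF, the master regulator of the lineage, went from 7 to 2, PMEL from 7 to 4 and DCT from 3 to 0. TYRP1 went from 2 to 1 and S100B from 3 to 2. PAX3 went from 5 to 7 and MLANA from 3 to 5, while SOX10 had 4 in both lists.

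Cells commit to division in G1. D-type cyclins bind CDK4 or CDK6 and cyclin E binds CDK2, these kinases phosphorylate the RB1 protein, and RB1 then releases E2F factors that switch on genes for DNA replication. CDKN1A (p21), a p53 target, inhibits the kinases, and MDM2 tags p53 for destruction while being a p53 target itself. In melanoma this pathway is a frequent site of lesions, among them amplification of CCND1 and CDK4 and loss of the kinase inhibitor gene CDKN2A.

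A loop was assigned to a gene when an anchor held any of its annotated transcript starts. Of the 10 genes, 8 had a loop in at least 1 list, against 8564 of 19229 autosomal protein-coding genes (44.5%). CCND2 and RB1 had none. The 8 genes had 49 loops, 33 in WT and 28 in STAG2-KD. The sums were 38 and 38 when starts within 5 kb of an anchor were counted too, so the difference between them rests on how starts are assigned. Of the 49, 12 were in both lists, 21 in WT alone and 16 in STAG2-KD alone. No loop joined the starts of 2 of these genes. Far anchors, meaning the anchor away from the gene's own start, lay upstream in 27 loops and downstream in 22.

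CCND1 and CDK6 had more loops in STAG2-KD than in WT, while CCND3, CDK2, CDK4 and E2F1 had fewer. CDKN1A and MDM2 had 1 loop in each list. Thus 2 of 8 genes rose in count, against 34.4% of all protein-coding genes with a loop, and 4 of 8 fell, against 43.4%. CCND1 and CDK6 had at least 3 more loops and at least 1.5 times as many in STAG2-KD, a difference found in 5.58% of genes. CDK2 and CDK4 passed the same limits in the other direction, as did 7.29% of genes. Both shares run over all genes with a loop, whose median was 2 loops in each list. Many of those genes had too few loops to pass a limit of 3. The shares among genes with as many loops as these 4 were not computed. Counting each list per 10000 of its loops placed CDKN1A and MDM2 also on the side of more loops, because the STAG2-KD list is shorter.

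**Figure D1:**
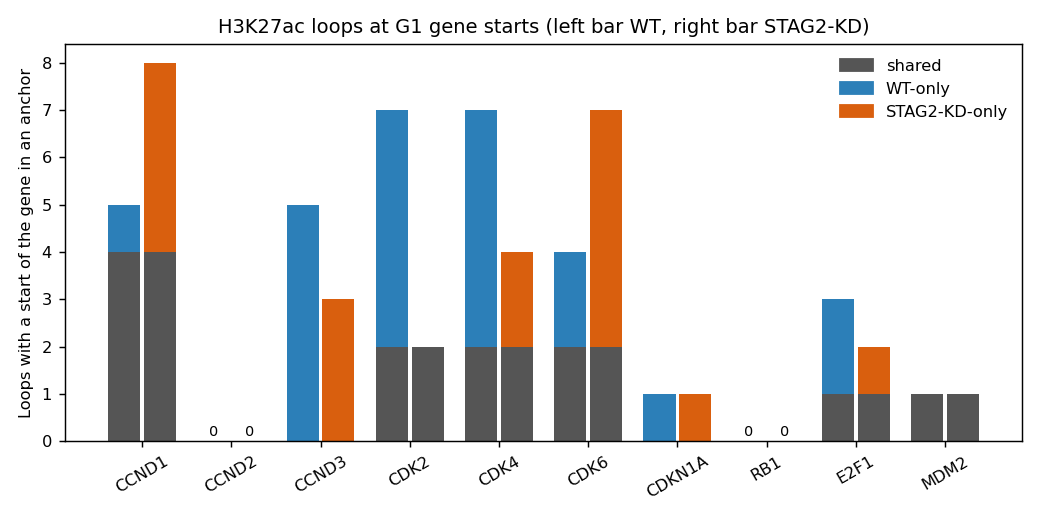
Number of H3K27ac loops (y axis) at the transcript starts of each of the 10 genes, in the WT and the STAG2-KD list, with bars split into loops present in both lists and loops present in 1 list. CDK2 goes from 7 to 2 loops, CCND1 from 5 to 8 and CDK6 from 4 to 7, and CCND2 and RB1 have none.

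**Figure D2:**
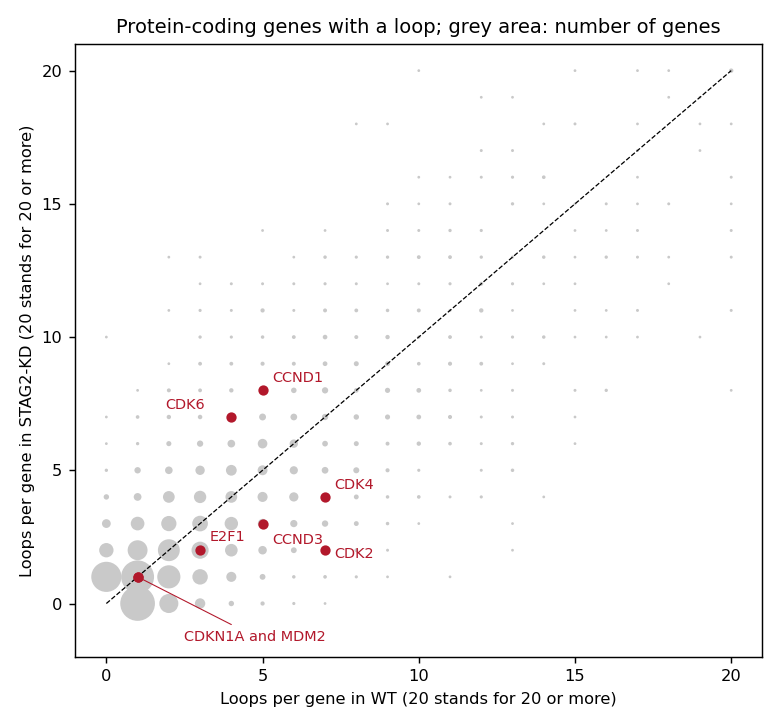
Loops per gene in WT (x axis) against STAG2-KD (y axis) for all autosomal protein-coding genes with a loop, with the area of a grey point standing for the number of genes and counts of 20 or more drawn at 20. The G1 genes are in red, CCND1 and CDK6 lie above the dashed line of equal counts, and CCND3, CDK2, CDK4 and E2F1 lie below it.

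In loops per gene, the median of the 8 genes was 4.5 for WT and 2.5 for STAG2-KD, against 2 and 2 over all genes with a loop. The count of 7 WT loops at CDK2 and at CDK4 was reached or passed by 9.54% of genes with a loop. The 8 STAG2-KD loops of CCND1 were reached or passed by 6.64%. All 8 genes had loops in both lists, and CCND3 and CDKN1A, 2 of the 8, shared none. Of the 6025 protein-coding genes with loops in both lists, 21.1% shared none.

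CCND1, on chromosome 11 (+ strand, 69455924 to 69469242 on hg19, ENSG00000110092), encodes cyclin D1, the D-type cyclin most often amplified in human cancers. Its 9 loops all left the anchor at 69455001 to 69460000, which held 5 of its starts. WT had 5 loops and STAG2-KD 8. Both lists held 4 loops reaching upstream, over 390, 370, 290 and 170 kb. The first ended at the start of MYEOV, a gene named for its overexpression in myeloma, and the next pair ended in MYEOV introns. The fourth ended in no protein-coding gene.

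The 4 loops found in STAG2-KD alone also ran upstream, over 560, 315, 130 and 55 kb. The longest ended in an exon of TPCN2, which encodes an endolysosomal channel linked to pigmentation. It was the longest loop of any of the 10 genes in either list. The far anchors of these 4 loops carried 0 loops of any kind in WT and 1, 3, 3 and 2 in STAG2-KD, the loop to CCND1 included. The only CCND1 loop found in WT alone was also the only downstream loop, 30 kb long, to the start of LTO1 (a gene of ribosome biogenesis).

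The far anchors of CCND1 were also joined to each other. There were 2 such loops in WT and 11 in STAG2-KD, and both WT loops were in the STAG2-KD list. The contrast is in part fixed by the choice of anchors, since 4 of the 9 were chosen through STAG2-KD-only loops and had 0 loops in WT. Among the 5 far anchors of the WT loops alone, 2 loops were found in WT and 6 in STAG2-KD. In the window of 500 kb on each side of the CCND1 start, WT had 13 loops and STAG2-KD 26, with 7 in both. This was the only window of the 10 with at least 3 more and 1.5 times as many loops in STAG2-KD, against 9.51% of the windows of all protein-coding genes, many of which overlap.

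**Figure D3:**
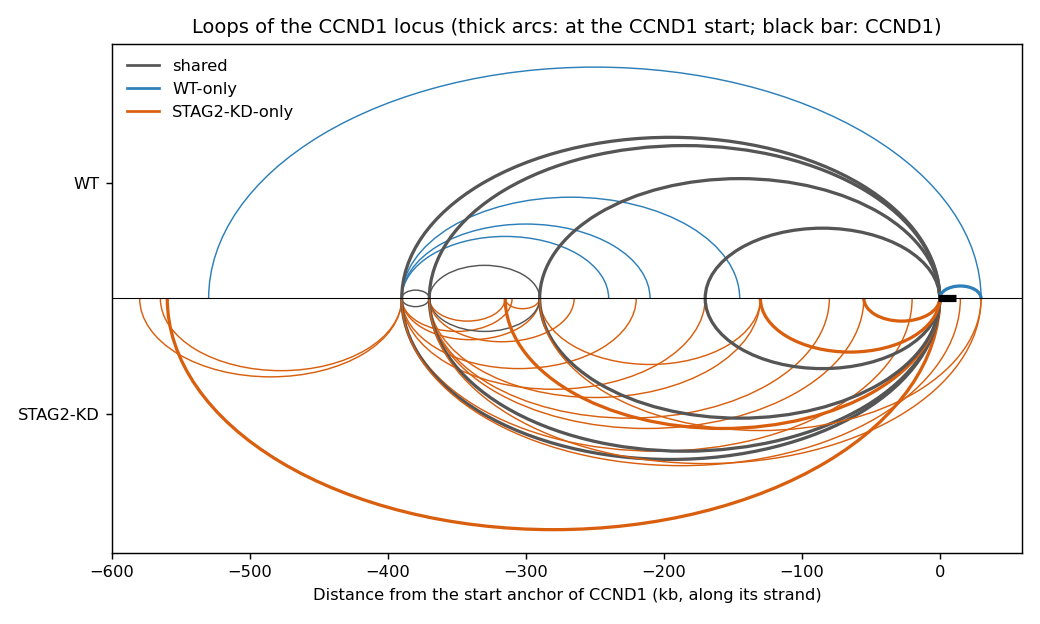
Loops around CCND1 drawn as arcs by distance in kb from the start anchor, negative values upstream, with WT above the line, STAG2-KD below it, thick arcs for loops at the CCND1 start, and a span that reaches beyond the window of the counts. The 4 loops of both lists and the 4 of STAG2-KD alone all reach upstream, and the WT-only loop to LTO1 lies 30 kb downstream.

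Sequence matches to the core of the motif of CTCF, the DNA-binding protein at which cohesin tends to halt, were looked for in all anchors. The core was taken as CCA, 2 unspecified bases, AG, 2 unspecified bases and GGC, on either strand. It was present in 17.8% of all 30601 distinct anchors, in 3 of 10 start anchors of the G1 genes and in 7 of 47 far anchors (14.9%). A match describes letters and not occupancy. The matches shown here, with the core in capitals and written 5′ to 3′ on the matching strand, lie at both ends of the WT-only CCND1 loop, at a CCND2 start that had no loop, and at ends of CDK2, CDK4 and E2F1 loops.
CCND1 start anchor, CCND1 intron, chr11:69459155-69459176 (hg19), − strand: agaggCCAGGAGGGGGCctctg
LTO1 anchor of the CCND1 loop found in WT alone, LTO1 intron, chr11:69485170-69485191 (hg19), − strand: tgctaCCACTAGGTGGCagtca
CCND2 start bin without a loop, CCND2 intron, chr12:4386276-4386297 (hg19), − strand: gtcttCCACTAGATGGCagcag
DGKA and PYM1 anchor of a CDK2 loop found in both lists, PYM1 intron, chr12:56320685-56320706 (hg19), + strand: cgagaCCAGAAGGGGGCgcagg
TSFM anchor of a CDK4 loop found in WT alone, intron of ENSG00000257921, chr12:58176458-58176479 (hg19), + strand: tccggCCAGCAGGTGGCaccat
E2F1 start anchor, E2F1 intron, chr20:32270153-32270174 (hg19), − strand: acctgCCAAAAGGTGGCcggag

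Both ends of the WT-only CCND1 loop thus held a match on the − strand, and the LTO1 end held another on the + strand. Matches at both ends were not particular to that loop. The 560 kb CCND1 loop found in STAG2-KD alone had them too, with a + strand match in its TPCN2 anchor. Further matches not shown lay in the NECAB3 and PXMP4 anchors of E2F1 loops. With the match in the E2F1 start anchor, those loops also had matches at both ends. The NECAB3 loop was in both lists and the PXMP4 loop in WT alone. The PRICKLE4 anchor of a CCND3 loop also held a match. The CDK6 start bin at 92245001, with a loop in STAG2-KD alone, held 1 as well. The matches of the CDK2 loop lay at its far end alone, since the CDK2 start anchor held 0.

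CCND2, on chromosome 12 (+ strand, 4378937 to 4414519), encodes cyclin D2. No loop in either list touched or spanned any of its 3 start bins, and the nearest anchor was 45 kb away in both lists. Its 1 Mb window held 1 loop in WT and 2 in STAG2-KD. The loop of both lists ran 215 kb from TIGAR, a p53-induced regulator of glycolysis, to RAD51AP1 and C12orf4. The other, in STAG2-KD alone, spanned 20 kb beside NDUFA9 and AKAP3.

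CCND3, on chromosome 6 (− strand, 41902672 to 42018095), encodes cyclin D3 and had starts in 2 bins 110 kb apart. The distal (upstream) bin, at 42015001, held 16 CCND3 starts and a start of TAF8, and it took part in 4 WT loops and 0 STAG2-KD loops. The proximal bin, at 41905001, held 7 starts and took part in 2 WT loops and 3 STAG2-KD loops. A single WT loop joined the 2 bins and counts in both.

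In WT the distal bin was joined over 260 kb to TOMM6, over 215 kb to a bin with SNORA8 and over 130 kb to BYSL and MED20. The other WT loop left the proximal bin for FRS3 and PRICKLE4, 155 kb away. In STAG2-KD the proximal bin was joined over 20 kb to the same BYSL and MED20 bin, and over 80 and 105 kb to CCND3 introns. The 105 kb loop ended 5 kb from the distal start bin, so at a tolerance of 1 bin it matched the WT loop between the starts. No CCND3 loop was shared exactly. The window around CCND3 had 8 loops in WT and 5 in STAG2-KD, and with RB1 it made 2 of the 10 windows that fell by at least 3 loops and 1.5 times, against 15.8% of all windows.

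CDK2, on chromosome 12 (+ strand, 56360565 to 56366573), encodes the kinase partner of cyclins E and A. Its only start bin, at 56360001, also held a start of PMEL, which encodes the premelanosome protein of pigment cells, so that loops of CDK2 and of this PMEL start cannot be told apart. WT had 7 loops there and STAG2-KD 2. Both STAG2-KD loops were also in WT, one of 40 kb to the starts of DGKA and PYM1 and one of 140 kb to DNAJC14. The 5 loops found in WT alone led over 240 kb to CD63, over 225 kb to GDF11, over 155 kb to a SARNP intron, over 75 kb downstream to RPS26 and over 150 kb downstream to ESYT1, RPL41 and ZC3H10.

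Most of these far anchors kept other loops in STAG2-KD. The CD63 anchor took part in 11 WT loops and 9 STAG2-KD loops, the RPS26 anchor 10 and 7, and the RPL41 anchor 6 and 6, while the GDF11 anchor carried 2 and 0. A STAG2-KD loop lay within 5 kb of the RPS26 loop at both ends. The window around CDK2 was the densest of the 10, with 74 loops in WT, 64 in STAG2-KD and 32 in both, and its fall did not reach 1.5 times.

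CDK4, on chromosome 12 (− strand, 58141510 to 58149796), encodes the kinase partner of the D-type cyclins. Its anchor at 58145001 held 14 starts of CDK4 and a start of MARCHF9. WT had 7 loops and STAG2-KD 4. Loops of 20 kb to METTL1 and EEF1AKMT3 and of 145 kb to a noncoding gene (ENSG00000245651) were in both lists. Those found in WT alone led to PIP4K2C (165 kb), OS9 (60 kb), AGAP2-AS1 (25 kb), TSFM (30 kb) and a CTDSP2 intron (85 kb). Those found in STAG2-KD alone led over 230 kb to DDIT3 and MBD6 and over 20 kb to AGAP2.

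The AGAP2 and AGAP2-AS1 anchors were adjacent bins, so at a tolerance of 1 bin these 2 loops matched each other. The METTL1 anchor carried 1 loop in WT and 5 in STAG2-KD, and the DDIT3 anchor, at a stress-response transcription factor gene, 3 and 7. The whole window did not fall with the gene, since it held 15 loops in WT and 17 in STAG2-KD.

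CDK6, on chromosome 7 (− strand, 92234235 to 92465887), encodes the other kinase partner of the D-type cyclins. It had 4 loops in WT and 7 in STAG2-KD, and of its 4 start bins those at 92460001 and 92245001 carried them. Loops of 150 and 135 kb from the main start to CDK6 introns were in both lists. Loops of 115, 100, 70 and 20 kb from the main start, and 1 of 80 kb from the bin at 92245001, were in STAG2-KD alone. WT alone had loops of 35 kb into the gene and of 220 kb upstream, into a bin outside protein-coding genes. None of the far anchors of CDK6 held a transcript start, and all but the upstream one lay in CDK6 introns.

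The bin at 92325001 was the far anchor of 2 CDK6 loops and took part in 8 WT loops and 12 STAG2-KD loops. Over the whole gene body, 24 WT loops and 34 STAG2-KD loops had an anchor inside CDK6, and 9 were in both lists. In the 1 Mb window the counts were 26 and 36, which is short of 1.5 times.

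**Figure D4:**
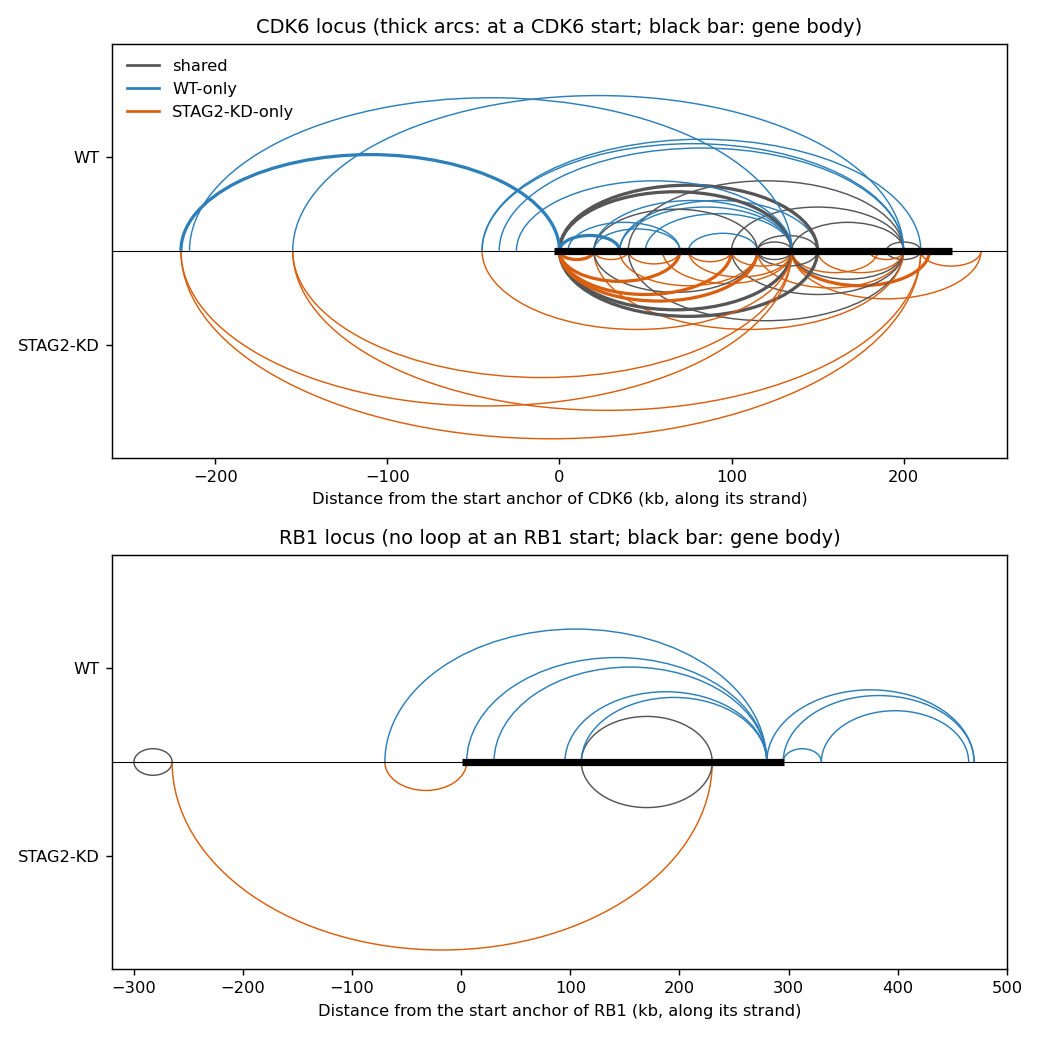
Loops around CDK6 and RB1 drawn as arcs by distance in kb from the main start bin along the direction of transcription, with WT above the line, STAG2-KD below it and thick arcs for loops at a start of the gene. CDK6 has 4 loops at its starts in WT and 7 in STAG2-KD, nearly all within the gene, while RB1 has none at its starts and a fan of 6 WT loops that meet at the LINC00462 bin.

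RB1, on chromosome 13 (+ strand, 48877880 to 49173572), encodes the retinoblastoma protein, which restrains E2F factors. None of its 4 start bins was an anchor in either list. The bin next to its main start, at 48880001, was an anchor in both. In WT this bin was joined over 275 kb to the start of the noncoding gene LINC00462 at 49155001, and in STAG2-KD over 75 kb to ITM2B upstream.

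The annotated extent of RB1 also takes in starts of RCBTB2 and LINC00462. Loops with an anchor in that extent numbered 9 in WT and 3 in STAG2-KD, with 1 in both. Counts for a shorter RB1 gene body were not made. The LINC00462 bin, near the 3′ end of this annotated extent, took part in 6 loops in WT and in 0 in STAG2-KD. The loop of both lists joined LPAR6, a receptor gene inside an RB1 intron, to RCBTB2 over 120 kb. The 1 Mb window went from 11 loops to 4.

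CDKN1A, on chromosome 6 (+ strand, 36644237 to 36655114), had 1 loop in each list, both upstream from the bin at 36645001. The WT loop ran 60 kb to a bin outside protein-coding genes, and the STAG2-KD loop 85 kb to SRSF3, a splicing factor gene. The loops differed, but the 1 Mb window had 19 WT loops and 18 STAG2-KD loops, and 11 were the same. MDM2, on chromosome 12 (+ strand, 69201957 to 69239324), had the same single loop in both lists, of 60 kb from the bin at 69200001, which held 31 of its starts, to an exon of SLC35E3.

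Both genes are textbook p53 targets, and a p53 response element was looked for with at most 2 mismatches. It was present in 4.13% of all distinct anchors, in 1 of 10 start anchors of the G1 genes and in 1 of 47 far anchors (2.13%). That far anchor was the RPS26 end of a CDK2 loop found in WT alone. The matches at the starts of these genes are shown in capitals, since one lies in a looped anchor and the other just outside one.
MDM2 start anchor with a loop in both lists, MDM2 intron, chr12:69202698-69202727 (hg19), + strand: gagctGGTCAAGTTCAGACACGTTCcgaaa
CDKN1A start bin with 0 loops, overlapping a CDKN1A UTR, chr6:36644221-36644250 (hg19), + strand: gtcagGAACATGTCCCAACATGTTGagctc

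E2F1, on chromosome 20 (− strand, 32263283 to 32274191), encodes an activator of S-phase genes. WT had 3 loops and STAG2-KD 2. The loop in both lists ran 20 kb downstream to NECAB3, ACTL10 and C20orf144. WT alone had upstream loops of 35 kb to PXMP4 and 45 kb to ZNF341. STAG2-KD alone had a loop of 425 kb, the second longest of the 10 genes, to a bin with exons of RALY and EIF2S2. That bin took part in 12 WT loops and 19 STAG2-KD loops.

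Although the 425 kb loop was absent from the WT list, 3 loops among the E2F1 far anchors were in both lists. One of them, of 445 kb, joined the NECAB3 bin, 20 kb from the E2F1 start, to the RALY bin. The 1 Mb window held 37 loops in WT and 38 in STAG2-KD.

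The E2F1 promoter is known to be bound by E2F factors. The letters TTTNNCGC, on either strand, were present in 6.89% of 35116 RefSeq promoters of 300 bases, and 7 of the 10 genes had promoters in that table, 13 in all. E2F1 had 4 matches, MDM2 had 1 in each of 2 overlapping promoters, and the other 5 genes had 0 in the promoters listed for them. The only RB1 promoter listed had 38.3% GC, against 59.3% to 78% in the promoters of the other genes. The 0 for RB1 therefore describes that sequence alone, and other RB1 promoters were not searched. The 140 bases before the E2F1 start site are shown with all 4 matches in capitals, and the last pair overlap.
E2F1 promoter, RefSeq, GRCh38.p14, 5′ to 3′ along the gene: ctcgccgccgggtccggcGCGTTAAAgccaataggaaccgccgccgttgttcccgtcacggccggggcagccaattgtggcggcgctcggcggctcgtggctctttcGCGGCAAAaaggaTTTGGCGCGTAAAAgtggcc

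The median distance of the 33 WT loops of the G1 genes was 135 kb (95% interval of the median 60 to 155), and that of the 28 STAG2-KD loops was 110 kb (70 to 150). Intervals of a median treat each loop as independent, although loops of a gene share an anchor. With the bin holding most starts of each gene alone, both medians were 132.5 kb. All loops at protein-coding starts had medians of 90 and 85 kb. Shared loops of the G1 genes had a median of 142.5 kb, those of WT alone 110 kb and those of STAG2-KD alone 92.5 kb, with intervals of 40 to 290, 45 to 165 and 55 to 230 kb that overlap. Over all loops at protein-coding starts, shared loops were the shorter, with a median of 75 kb against 100 kb in WT alone and 100 kb in STAG2-KD alone. The longest loops of CCND1, CDK4, CDKN1A and E2F1 were in STAG2-KD alone. Those of CCND3, CDK2 and CDK6 were in WT alone.

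**Figure D5:**
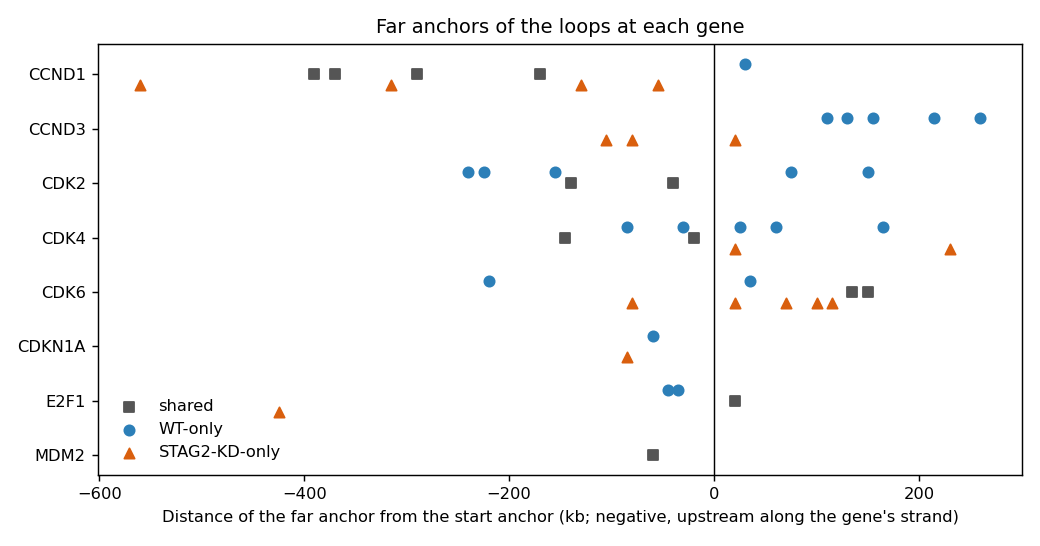
Distance in kb from the gene's start anchor to the far anchor for each of the 49 loops, by gene and by whether the loop was in both lists, in WT alone or in STAG2-KD alone. The points reach 390 kb for WT loops and 560 kb for those of STAG2-KD, and the 2 longest STAG2-KD-only loops belong to CCND1 and E2F1.

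For these genes, the share of far anchors at a transcript start was lower in the STAG2-KD list. A transcript start of any gene lay in the far anchor of 23 of 33 WT loops (69.7%, exact binomial 95% interval 51.3 to 84.4) and of 11 of 28 STAG2-KD loops (39.3%, 21.5 to 59.4). For all loops at protein-coding starts the shares were 43.5% and 42.8%. Among loops in WT alone the share was 17 of 21 (81.0%, 58.1 to 94.6), and among those in STAG2-KD alone 5 of 16 (31.2%, 11 to 58.7). Over all loops at protein-coding starts these shares were 40.5% in WT alone and 38.9% in STAG2-KD alone. The share in STAG2-KD alone was thus the nearer to that of other genes. The intervals of WT and STAG2-KD overlap, as do those of the loops found in a single list. Intervals cover counting error only, and loops of a gene share an anchor and are not independent. CDK2, CDK4 and CCND3 gave 15 of the 21 loops in WT alone, and CCND1 and CDK6 gave 9 of the 16 in STAG2-KD alone. When a start within 5 kb of the far anchor was counted too, the shares were 87.9% in WT and 67.9% in STAG2-KD. The share over all loops at protein-coding starts was not computed at that tolerance.

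Sharing was near that of other genes. Shared loops were 36.4% of the WT loops of the G1 genes (20.4 to 54.9) and 42.9% of the STAG2-KD loops (24.5 to 62.8), against 41.2% and 43.4% for all loops at protein-coding starts. Of the 37 loops found in a single list, 6 had a loop of the other list within 5 kb at both anchors. The far anchor carried other loops in the other list in 12 of 21 loops of WT alone and in 9 of 16 of STAG2-KD alone.

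MboI, the enzyme that cut the chromatin, recognises GATC, and a bin with few sites can yield few ligated reads. Anchors had a median of 14 sites, with 8 at the 5th and 21 at the 95th percentile. The main start bin of RB1 had 7 sites and that of CCND2 9, and neither was an anchor. The start anchor of CCND1 had 7 too and carried up to 8 loops. The part of site number in these counts was not tested.

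A wider list of 40 genes of the G1/S machinery gave the setting. Of these, 28 had a loop, 6 with more in STAG2-KD, 13 with fewer and 9 with equal counts, against 34.4% and 43.4% of all genes with more and fewer. Their median count was 2 for WT and 1 for STAG2-KD. The limits of 3 loops and 1.5 times were passed upward by 2 of the 28 and downward by 2, against 5.58% and 7.29% of all genes, so these shares were near the background. Those passing upward were CDKN2B, an INK4 inhibitor of CDK4 and CDK6, with 3 in WT and 7 in STAG2-KD, and CDKN2D of the same family, with 4 and 7. Next came E2F2, with 1 and 2. In the other direction, AMBRA1, part of a ubiquitin ligase that degrades D-type cyclins, and WEE1, a kinase that holds cells before mitosis, both had 3 loops in WT and 0 in STAG2-KD, followed by CCNE2 (cyclin E2) with 2 and 0.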

How the data were processed

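H3K27ac HiChIP libraries of M14 cells were labelled as 2 WT and 2 STAG2-KD samples and were grouped by title. A single loop list per group, filed under replicate 1, was analysed. The descriptions of all 4 samples carry the word merged, without saying what was merged, so whether a list joins both replicates is unknown. The authors cut chromatin with MboI, aligned reads to hg19 with HiC-Pro, used hichip-peaks for peaks and FitHiChIP for loops. Tool versions are not given in the sources used here. The deposited lists hold other values than counts: 3 columns of positions, namely chromosome, start of the left anchor and end of the right anchor, with no count, score or q-value. Depth per loop is therefore unknown.

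Each anchor was taken as the outer 5 kb at each end, and 1 STAG2-KD line off the 5 kb grid was kept. Positions are printed counted from 1. Transcript starts came from GENCODE release 44 lifted to GRCh37. Loops with the same bins in both lists were called shared. Counts of members were set beside the same counts over all autosomal protein-coding genes with a loop. Shares have exact Clopper-Pearson intervals, and medians order-statistic intervals, at 95%. No test across replicates was possible. The genes and gene lists were chosen with earlier results of these data known. Named genes were the 10 members and, from the wider list, the 3 largest differences in each direction, with ties broken by alphabet. Promoters came from RefSeq. The counting functions were tested on simulated data and all 8 planted values were recovered. Alternatives were wider start and match tolerances, coding transcripts only, a 1 Mb limit, a single start bin per gene and scaling by list size. Python 3.11.15, numpy 2.4.6, scipy 1.17.1 and matplotlib 3.10.9 were used. The partners of 1 loop near RB1 are not reported here.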

Additional observations from a re-analysis of the deposited data

How the results depend on the processing

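Over 36 results, 119 values were recomputed under alternatives, of which 109 stayed within the counting error or 1.5 times of the reported value, 10 moved further and 0 reversed. The 1 Mb limit could change no value of these genes, since their longest loop was 560 kb. A value that stayed within those bounds could still remove a difference between the lists, as the sums and medians below show. Counting transcript starts within 5 kb of the far anchor raised the share of far anchors with a start to 87.9% in WT and 67.9% in STAG2-KD. Scaling each list to 10000 loops raised the share of genes with more loops in STAG2-KD to 56.6% and the number of such members to 4, because every gene with equal counts then lies higher in the shorter list. Counting starts within 5 kb of the gene's own anchor gave CDK6 8 loops in WT and 14 in STAG2-KD, CDK2 4 in STAG2-KD, and RB1 1 in each list. The sums over the genes were then 38 in WT and 38 in STAG2-KD, so that the lower sum in STAG2-KD was lost. With the bin holding most starts alone, CCND3 had 0 loops in STAG2-KD and the median distance was 132.5 kb in both lists, so that the shorter median in STAG2-KD was lost. Allowing 1 bin at both anchors left 18 loops in WT alone and 13 in STAG2-KD alone. No paired analysis was possible because a single list stood for each group, and for the same reason no replicate could be left out. The lists carry no read support, so a loop in a single list cannot be told apart from one just short of the limit in the other.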
